A study of Mus musculus with 2 samples.

Results

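The genes described here are the 4 tropomyosins Tpm1, Tpm2, Tpm3 and Tpm4, the smooth muscle actin gene Acta2, the transgelins Tagln and Tagln2, calponin 3 (Cnn3) and caldesmon (Cald1). They were picked by symbol, and all 9 were found among 31053 features of the deposited tables. Each was measured as raw UMIs, the count of distinct mRNA molecules captured from a cell, in single cells of mouse back skin. The single-cell RNA-seq compared 1 control mouse with 1 miR-205-induced mouse at postnatal day 53. The inducible mouse carries a pTRE2-miR-205 transgene, made in FVB mice, and the Krt14-rtTA driver, which turns the transgene on in keratin 14 skin epithelium when doxycycline is given. It was fed doxycycline for 4 days from postnatal day 49. The control was described as a littermate, matched for sex and also fed doxycycline, although the treatment label of its sample reads untreated. Both mice carried the K14-H2BGFP allele, the strain label of both is C57BL/6, and whether the control carried the transgene or the driver was not stated. Live cells were sorted by surface proteins and H2BGFP into a mix of 3 parts epidermal, 5 parts hair follicle and 2 parts dermal cells, with a target of 5000 cells per library, and both libraries ran on 1 chip.

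Tropomyosins are coiled-coil proteins that lie end to end along actin filaments and set which myosins and other partners can bind. Caldesmon and the calponins bind the same filaments and restrain myosin, and transgelins bundle them. Acta2 and Tagln are best known from smooth muscle, pericytes and myofibroblasts, while Tagln2 is made by many epithelial and immune cells. In the hair follicle, the hair follicle stem cells (HF-SCs) of the bulge rest above the hair germ (HG), whose progenitors start each new growth phase.

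Depth was similar, with 55465594 UMIs in 4545 control barcodes and 49733560 UMIs in 4264 induced barcodes. After filtering on detected genes and mitochondrial UMIs, 3936 control cells (86.6%) and 3628 induced cells (85.1%) remained, with medians of 12198.5 and 11752.5 UMIs per cell. Between them the libraries shared 11 barcode sequences. Integration of both libraries gave 23 clusters, of which 18 could be named from marker genes, and 21 had at least 20 cells in each library. Among them, 3 clusters met the HF-SC markers and are kept apart by number. Cluster 4, led by Krt24, had 6 of 7 HF-SC markers raised (271 control and 223 induced cells). Cluster 8, led by Pthlh, had 4 of 7 raised but none among its 10 leading genes (165 and 221 cells). Cluster 14, led by Shisa2, had 5 of 7 raised (80 and 125 cells). Cluster 7 (204 and 210 cells) was the nearest to HG, with 5 of 6 HG markers raised and Lgr5 among its 10 leading genes. Tagln and Acta2 were also among those 10 genes, so it was left unnamed and is called cluster 7. With 1 library per condition there is no replicate, mouse and condition cannot be told apart, and no p-value is given. Ratios are log2 of induced over control CPM (UMIs of the gene per 1000000 UMIs of the cluster), and their 95% intervals cover counting error only, not the spread between cells or mice. A gene with at least 20 UMIs over both libraries is called lower or higher when the log2 ratio is at most -0.5 or at least 0.5.

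The mature strand of the induced microRNA, from RefSeq (GRCm38.p6, chr1:193507503-193507524, minus strand), is shown with its seed, bases 2 to 8, in capitals, since the seed is what pairs with target mRNAs.
mmu-miR-205-5p: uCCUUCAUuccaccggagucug

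The complement of the 7-base seed, ATGAAGG, was looked for on the mRNA strand of every annotated 3′ UTR of the 9 genes in the NCBIM37 reference transcripts. None of the 9 genes held it, neither in the 16 Tpm1 transcripts nor in the 6 Cald1 transcripts, whereas 10.3% of 20007 genes held it in their longest 3′ UTR. The shorter 6-base match TGAAGG, which lies inside the 7-base one, stood in Tpm2, Tpm3, Tagln and Cald1, against 32.3% of all genes. Each match is shown in capitals with 12 bases on either side, 5′ to 3′. The matches lie at chr4:43528218-43528223 (minus strand) for Tpm2, chr3:89903638-89903643 and chr3:89904063-89904068 (plus strand) for Tpm3, chr9:45738148-45738153 (minus strand) for Tagln and chr6:34716116-34716121 (plus strand) for Cald1, all on NCBIM37.
Tpm2: aaaggtctggtgTGAAGGtcgttaaagtct
Tpm3, upstream match: gatctttttaacTGAAGGctgctttccctc
Tpm3, downstream match: tgttctgggctgTGAAGGttttcagctttg
Tagln: tcgaatgtccttTGAAGGagacccagccca
Cald1: aaactgctggccTGAAGGtgggagtttcca

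A match describes these letters alone. The 7-base search covered ATGAAGG only and did not look for other 7-base forms. Among the matches shown, only that of Tagln is followed directly by an A. The 6-base match stood in 2 of 3 Tpm2 transcripts, 5 of 7 Tpm3 transcripts, the single Tagln transcript and 1 of 6 Cald1 transcripts. Tpm1, Tpm4, Acta2, Tagln2 and Cnn3 held neither match in these transcripts.

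The 9 genes fell into 2 kinds by where they were found. Tpm3, Tpm4 and Tagln2 were above 100 CPM in all 21 clusters, and Tpm1 was above 100 CPM in 19 of them. In contrast, Acta2 and Tagln were above 10 CPM in 2 clusters each, and Cnn3 in 5. Tpm1, the tropomyosin gene whose products line stress fibres and, in muscle, the contractile filament, was highest in HF-SC-like cluster 4 of the control library, at 1788 CPM (95% interval 1739 to 1838), followed by inner bulge-like cluster 3 at 1431 CPM (1366 to 1498). In the induced library the order changed, with cluster 3 at 1254 CPM (1214 to 1295) and IFE basal-like cluster 0 at 940 CPM (916 to 965) above cluster 4 at 785 CPM (749 to 821). Tpm2, the tropomyosin best known from slow skeletal and smooth muscle, was highest in cluster 1, a keratinocyte cluster led by Krt18 and Krt8, at 246 CPM over both libraries, and had no UMI in cluster 20. Tpm3 and Tpm4 make tropomyosins of non-muscle cells, among other products. Tpm3 ranged from 113 CPM in cluster 15 to 477 CPM in dermal papilla-like cluster 9. Tpm4 was highest in T cell-like cluster 20, at 989 CPM, and lowest in cluster 16 at 151 CPM. Tagln2 was highest in cycling-like cluster 13 at 1441 CPM. Cnn3, the calponin of non-muscle cells, was highest in melanocyte-like cluster 21 at 381 CPM, both over the 2 libraries. For Cald1 the order differed between the libraries: cluster 4 was highest in the control library, at 471 CPM, with dermal papilla-like cluster 9 at 302 CPM, and cluster 9 was highest in the induced library, at 393 CPM, with cluster 4 at 203 CPM.

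**Figure D1:**
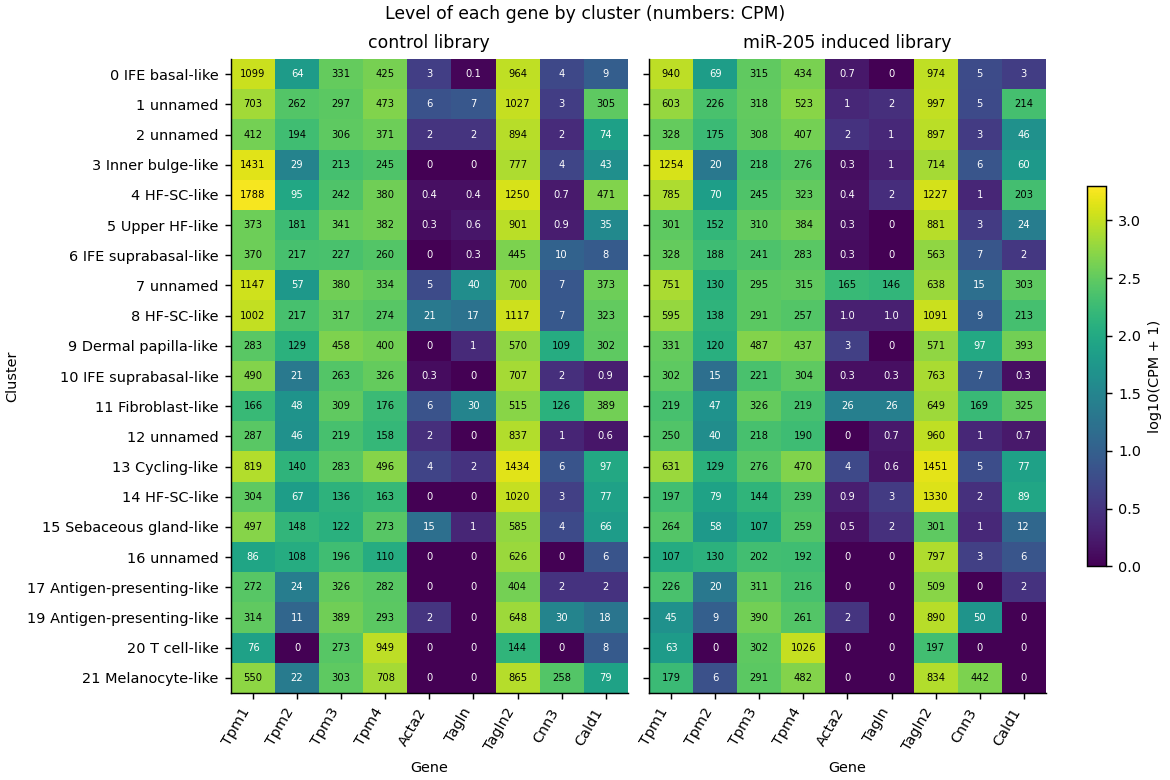
Level of the 9 genes (columns) in 21 clusters (rows) of the control library (left) and the miR-205-induced library (right), with CPM printed in each cell and log10(CPM + 1) as colour. Tpm1 stood at 1788 CPM in cluster 4 of the control library and at 785 CPM in the induced library, and Acta2 and Tagln were above 10 CPM over both libraries in 2 rows each.

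Tpm1 and Cald1 were lower after induction in HF-SC-like cluster 4. Tpm1 gave 5048 UMIs from the 271 control cells, or 1788 CPM (95% interval 1739 to 1838), and 1846 UMIs from the 223 induced cells, or 785 CPM (749 to 821). The log2 ratio was -1.19 (-1.27 to -1.11), a level 2.28 times lower in the induced library. Cald1 went from 1329 UMIs (471 CPM) to 477 UMIs (203 CPM), a log2 ratio of -1.21 (-1.37 to -1.06), 2.32 times lower. Among the 2827 genes with at least 200 UMIs in this cluster, Cald1 was the 19th and Tpm1 the 21st from the lowest ratio. The other tropomyosins moved less. Tpm2 went from 268 to 164 UMIs (94.9 to 69.7 CPM), with a log2 ratio of -0.44 (-0.73 to -0.16). Tpm4 stood at 380 and 323 CPM, with a log2 ratio of -0.23, and Tpm3 at 242 and 245 CPM, with a log2 ratio of 0.02. Tagln2 stood at 1250 and 1227 CPM, with a log2 ratio of -0.03 (-0.10 to 0.04). Acta2, Tagln and Cnn3 had 5 UMIs or fewer each in cluster 4 over both libraries and were not compared. Of the 6 genes with enough UMIs, 2 were lower and none was higher, against 10.3% lower and 13.5% higher among the 8696 genes compared in this cluster. Their median log2 ratio was -0.34, and that of all genes 0.03.

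The lower Tpm1 level in cluster 4 was spread over many cells. The 5 highest cells held 6.97% of the Tpm1 UMIs in the control library and 12% in the induced library, and without them the log2 ratio was -1.26. To compare cells at 1 depth, 5000 UMIs were drawn from each cell, and 12 control and 8 induced cells of lower depth were dropped. Of the thinned control cells, 244 of 259 had a Tpm1 UMI (94.2%, exact 95% interval 90.6 to 96.7), with a median of 7 UMIs and quartiles of 4 and 13. Of the thinned induced cells, 162 of 215 had one (75.3%, 69.0 to 81.0), with a median of 2 and quartiles of 1 and 6. The unthinned shares were 96.7% and 86.5%. Intervals on shares treat the cells of 1 mouse as separate draws, so they do not cover the spread between mice. For Cald1 the thinned shares were 60.6% (54.4 to 66.6) and 36.3% (29.8 to 43.1), and the 5 highest cells held 11.5% of its UMIs in the control and 27.9% in the induced library. Without those cells the Cald1 log2 ratio was -1.50. In T cell-like cluster 20, which should lack most of this RNA, 2 of 10 control and 4 of 16 induced cells had a Tpm1 UMI after thinning, and 1 of 10 and 0 of 16 had a Cald1 UMI. The exact 95% upper limit for 0 of 16 is 20.6% of cells with a UMI (18.8% by the rule of 3 counts), and the median depth of that cluster was 4470 UMIs in the control and 5113 in the induced library before thinning. For Tpm2 and Tpm3 the thinned shares in cluster 4 lay closer together, at 31.7% and 30.2% for Tpm2 and at 61.8% and 69.3% for Tpm3.

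**Figure D2:**
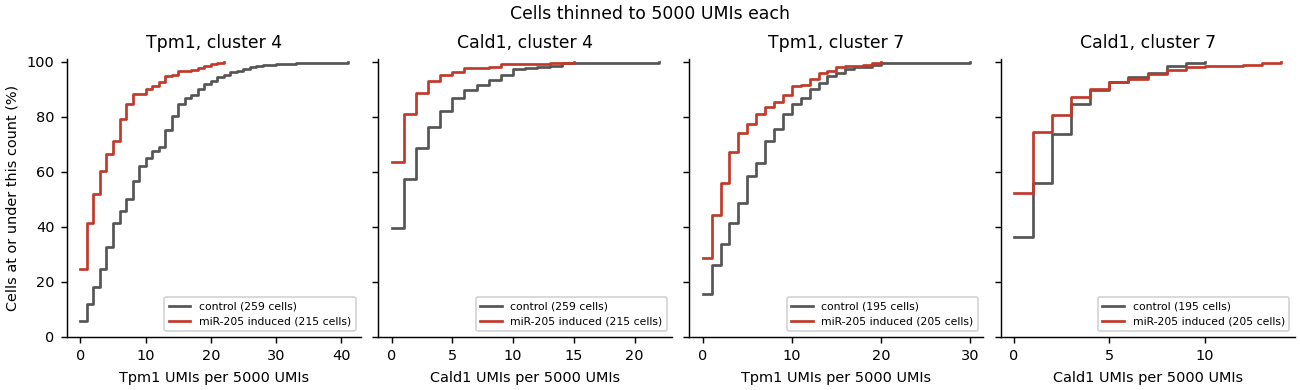
Cumulative share of cells (y axis, percent) at or under each number of Tpm1 or Cald1 UMIs (x axis) after thinning every cell to 5000 UMIs, in clusters 4 and 7, for the control (grey) and miR-205-induced (red) library. In cluster 4 the Tpm1 median was 7 UMIs in control and 2 in induced cells, and in cluster 7 it was 5 and 2.

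In cluster 7, the cluster nearest to HG, Tpm1 was lower and the rarer genes were higher. Tpm1 went from 2672 UMIs (1147 CPM) to 2027 UMIs (751 CPM), a log2 ratio of -0.61 (-0.70 to -0.53). Its thinned median went from 5 to 2 UMIs, and the share of thinned cells with a UMI from 84.6% to 71.2%. Cald1 went from 869 to 818 UMIs (373 to 303 CPM), a log2 ratio of -0.30 (-0.44 to -0.16) that did not reach the fold, and its thinned share from 63.6% to 47.8%. Tpm3 went from 380 to 295 CPM, a log2 ratio of -0.36, its lowest in any cluster. Tpm4 and Tagln2 had log2 ratios of -0.09 and -0.13. In the other direction, Tpm2 went from 132 UMIs (56.7 CPM) to 350 UMIs (130 CPM), a log2 ratio of 1.19 (0.90 to 1.49). Acta2 went from 11 to 444 UMIs, Tagln from 93 to 393 UMIs and Cnn3 from 16 to 40 UMIs, with log2 ratios of 5.06, 1.86 and 1.08. Of the 9 genes, 1 was lower and 4 were higher in cluster 7, against 11.6% lower and 17.9% higher among 9119 genes. The stress genes of this cluster moved as well: of 15 stress response genes on a list, 11 were higher, with a median log2 ratio of 0.78, and Socs3, Fos, Egr1, Atf3 and Zfp36 were past a log2 ratio of 1 (1.26, 1.24, 1.14, 1.13 and 1.01). In cluster 4, 3 of the 15 were higher, with a median of 0.35, and Socs3 (1.37) and Hspa1a (1.01) were past 1. Their part in the results was not tested.

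Only 4 cells of the induced library carried most of the rise of Acta2 in cluster 7. They held 439 of the 444 Acta2 UMIs of the cluster (98.9%) and 82.4% of the 533 Acta2 UMIs of all kept induced cells. Their Acta2 counts were 165, 164, 71 and 39 UMIs, and their Tagln counts 87, 50, 51 and 6. They also held 149 of 350 Tpm2 UMIs (42.6%), 194 of 393 Tagln UMIs (49.4%) and 13 of 40 Cnn3 UMIs (32.5%), but 4.49% of the Tpm1 UMIs and 7.95% of the Cald1 UMIs. Each had between 49 and 100 UMIs of Krt14, the basal keratinocyte keratin, and between 5 and 9 of Myh11, the smooth muscle myosin heavy chain. Their Krt5 counts were 7, 7, 2 and 10 UMIs, and their counts of the HG marker Lgr5 were 0, 0, 0 and 2. Of the mural markers, a list of pericyte and smooth muscle genes without the members, only Myh11 had a UMI in these cells. The pericyte gene Rgs5 and the muscle filament gene Des had none. The mitochondrial shares of the 4 cells lay between 5.65% and 6.76%, so that none passed a limit of 5%. Their doublet scores lay between percentiles 34.3 and 56.3 of their library. Doublet scoring called too few cells to have worked, so these scores cannot tell whether the 4 cells are doublets. Without the cells of 10 or more Acta2 UMIs, the log2 ratio in cluster 7 was -1.25 for Acta2 (5 UMIs left in the induced library), 0.42 for Tpm2, 0.91 for Tagln and 0.55 for Cnn3, while Tpm1 stood at -0.65. Tagln was thus still called higher in the remaining cells, at 199 UMIs against 93. Cnn3, at only 27 against 16 UMIs, was just past the fold. Requiring under 5% mitochondrial UMIs instead gave a log2 ratio of -0.37 for Cnn3 in cluster 7. A Tagln UMI was found in 38 of 210 induced cells and in 18 of 204 control cells of cluster 7.

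Across the kept cells, Acta2 and Tagln rested on few cells in both libraries. Acta2 was counted in 51 of 3936 control cells and in 44 of 3628 induced cells, with 170 and 533 UMIs, and the 5 highest cells held 42.9% of the control and 88.4% of the induced UMIs. Tagln was counted in 57 control and 91 induced cells, with 230 and 481 UMIs, of which the 5 highest cells held 35.2% and 51.8%. For the 4 tropomyosins and Tagln2 the same share lay between 0.75% (Tpm3) and 1.77% (Tpm2) in the control library. It took 596 control cells to reach 50% of the Tpm1 UMIs and 448 induced cells, but 7 control cells and 2 induced cells for Acta2. The remaining cells with 10 or more Acta2 UMIs were of several kinds. A cell of fibroblast-like cluster 11 in the induced library had 32 Acta2 and 50 Rgs5 UMIs, and 2 control cells of HF-SC-like cluster 8 had 18 and 13 Acta2 UMIs beside 41 and 33 Rgs5 UMIs. Another 2 control cells, in clusters 15 and 1, had 19 and 15 Acta2 UMIs with 273 and 94 Krt14 UMIs and no Tagln UMI.

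**Figure D3:**
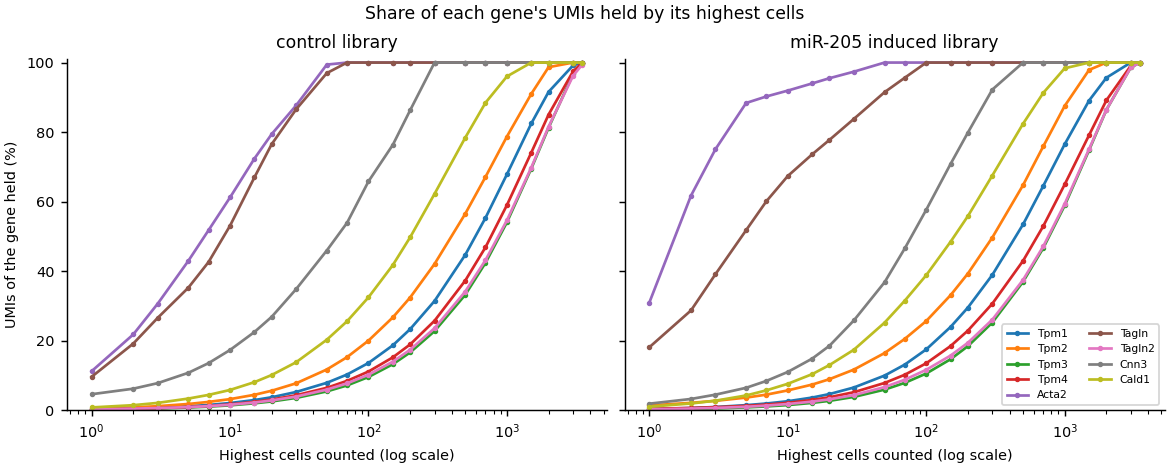
Share of each gene's UMIs (y axis, percent) held by its highest cells, counted from the highest down (x axis, log scale), over all kept cells of the control (left) and miR-205-induced (right) library. The 5 highest cells held 42.9% and 88.4% of the Acta2 UMIs, and 1.11% and 1.43% of the Tpm1 UMIs.

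More Acta2 lay outside the kept cells than inside them in the control library. Of 566 Acta2 UMIs over all control barcodes, 396 were in the 609 barcodes that the filters removed, and of 844 in the induced library, 311 (36.8%) were in the 636 removed barcodes. For Tagln the removed shares were 43.8% and 31.8%, whereas for Tpm1 they were 8.21% and 10.1%, close to the 8.84% and 8.79% of all UMIs that were removed. The 3 control barcodes with 268, 59 and 45 Acta2 UMIs accounted for 372 of the 396. They had 81, 29 and 23 Myh11 UMIs, 128, 41 and 31 UMIs of the myosin kinase Mylk, 81, 36 and 23 of the muscle filament gene Des, 2 Krt14 UMIs each and no Rgs5 UMI, at 13.0%, 14.2% and 16.4% mitochondrial UMIs. The highest such barcode of the induced library had 243 Acta2, 102 Myh11, 145 Mylk and 91 Des UMIs at 25.9% mitochondrial UMIs. These barcodes thus differed from the 4 cells of cluster 7, which had 9 Myh11 UMIs or fewer and 49 Krt14 UMIs or more. Over all barcodes Acta2 stood at 10.2 CPM in the control and 17.0 CPM in the induced library, compared with 3.36 and 11.7 CPM over the kept cells.

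By number of clusters, Tpm1 and Cald1 had the most lower values, 8 each, while Acta2 was lower in 4 and Tagln in 2 of the 6 and 4 clusters where they could be compared. Over the 9 genes and 21 clusters, 137 values had enough UMIs, of which 28 (20.4%) were lower and 12 (8.76%) were higher, while over all genes 10.7% of 157437 values were lower and 13.2% higher. Tpm1 was lower in 8 of 20 clusters and below 0 in 17, and Cald1 was lower in 8 of 14 clusters and below 0 in 11. For both genes, every one of the 8 lower values had an interval below 0. Some of these values lost the call in alternatives of the processing. Tpm1 kept it in 6 of 8 in cluster 14 and 7 of 8 in cluster 21, and Cald1 in 6 of 8 in cluster 1. Cald1 also kept it in 8 of 9 in clusters 5 and 15, with a highest value of 0.35 in cluster 15. Outside cluster 8, given below, the others kept the call throughout. In HF-SC-like cluster 8, 5 of 9 genes were lower, against 10.2% of 8084 genes, and none was higher (12.2%). Tpm1 went from 1002 to 595 CPM (log2 ratio -0.75, -0.86 to -0.64), Tpm2 from 217 to 138 CPM (-0.65, -0.89 to -0.42) and Cald1 from 323 to 213 CPM (-0.60, -0.79 to -0.42). Of 9 alternatives in the processing, 8 kept the call for Tpm1, 6 for Tpm2 and 8 for Cald1. The smallest changes among them were -0.44, -0.24 and -0.14. Acta2 (32 and 2 UMIs) and Tagln (26 and 2 UMIs) were also called lower there, but without the 2 control cells rich in Rgs5 each gene had under 20 UMIs left, too few to compare. The summed mural markers, genes of pericytes and smooth muscle, stood at 123 CPM in the control and 75.1 CPM in the induced library of this cluster. Of the 15 stress genes, 7 were higher there, with a median log2 ratio of 0.50. The part of either in the result was not tested. In HF-SC-like cluster 14, which had fewer UMIs, Tpm1 went from 304 to 197 CPM (-0.62, -0.91 to -0.33) and Tpm4 from 163 to 239 CPM (0.55, 0.22 to 0.90), where 11.7% of all genes were lower and 16.6% higher. Among epidermal clusters, Tpm1 was lower in IFE suprabasal-like cluster 10 (490 to 302 CPM, -0.70, -0.82 to -0.58), where 9.07% of all genes were lower and 12.6% higher. In IFE basal-like cluster 0, which held 28.6% of the control Tpm1 UMIs, Tpm1 stood at 1099 and 940 CPM, a log2 ratio of -0.23 (-0.27 to -0.18).

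In sebaceous gland-like cluster 15, 5 of 7 genes were lower, against 16.6% of 8099 genes, and none was higher (13.4%). Of the 15 stress genes, 7 were lower and 2 higher in this cluster, with a median log2 ratio of -0.34, and their part was not tested. Tpm1 went from 497 to 264 CPM (-0.91), Tpm2 from 148 to 57.8 CPM (-1.35), Tagln2 from 585 to 301 CPM (-0.96) and Cald1 from 66.2 to 11.6 CPM (-2.49), and Acta2 from 24 to 1 UMI, 19 of the 24 in a single cell. Tagln2 was called in no other cluster. The 5 highest cells held 80.8% of the control Cald1 UMIs there. When cells of 5% or more mitochondrial UMIs were left out, the log2 ratio of Tpm2 was 1.29 and that of Cald1 0.35, while Tpm1 stayed at -0.57. Tpm1 was also lower in 2 small clusters, antigen-presenting-like cluster 19 (138 and 20 UMIs, -2.77) and melanocyte-like cluster 21 (49 and 32 UMIs, -1.61). In these the 5 highest control cells held 71.0% and 81.6% of the Tpm1 UMIs, and 23.8% and 20.6% of all genes were lower (16.4% and 21.5% higher).

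The remaining Cald1 values called lower were -0.51 in cluster 1 (305 and 214 CPM), -0.69 in cluster 2 (73.8 and 45.7 CPM), -0.54 in upper HF-like cluster 5 (35.4 and 24.2 CPM), -1.53 in IFE basal-like cluster 0 (84 and 18 UMIs) and -1.67 in IFE suprabasal-like cluster 6 (30 and 8 UMIs). Cluster 1, with 1825 and 944 UMIs, had the most Cald1 UMIs of these. Over all genes, 6.88% were lower in cluster 1, 7.46% in cluster 2, 6.67% in cluster 5, 6.76% in cluster 0 and 7.07% in cluster 6, with 9.97%, 10.3%, 10.7%, 10.2% and 11.2% higher. Acta2 (30 and 4 UMIs in cluster 0, 35 and 6 in cluster 1) and Tagln (41 and 8 in cluster 1) were called lower as well, at log2 ratios of -2.10, -2.01 and -1.85. In inner bulge-like cluster 3 Cald1 went the other way, from 43.1 to 60.2 CPM (0.47, 0.04 to 0.95), while Tpm2 (37 and 59 UMIs, -0.54, -1.15 to 0.10) was called lower with an interval across 0, against 8.22% lower and 13.9% higher of all genes.

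In the dermal clusters neither Tpm1 nor Cald1 was called. In dermal papilla-like cluster 9, 7 genes had enough UMIs and none was called, with log2 ratios from -0.17 for Cnn3 to 0.38 for Cald1 (302 and 393 CPM), against 17.4% lower and 12.8% higher of 7017 genes. In fibroblast-like cluster 11, Tpm1 went from 166 to 219 CPM (0.39, 0.17 to 0.63) and Cnn3 from 126 to 169 CPM (0.42, 0.16 to 0.69), and Acta2 from 9 to 50 UMIs (2.05), of which 32 were in the cell with Rgs5, against 7.76% lower and 17.7% higher of all genes. Without that cell the Acta2 log2 ratio was 0.60. That cluster had UMIs of all 9 mural markers in both libraries, at 344 and 364 summed CPM. In cluster 4 the summed mural markers stood at 60.6 and 52.7 CPM with 2 and 4 of 9 detected, and in cluster 7 at 64.8 and 71.5 CPM with 4 and 3 of 9 detected and Rgs5 at 0 in both libraries. Their part in the results was not tested.

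Tpm3, Tpm4 and Tagln2 varied least between the libraries. Tpm3 was called in 0 of 21 clusters, with log2 ratios from -0.36 to 0.14, and the near-identical locus Tpm3-rs7, to which some of its reads could be assigned, had 722 and 699 UMIs. Tpm4 was higher in clusters 14 and 16 and lower in cluster 21, where it went from 708 to 482 CPM (-0.56, -1.04 to -0.06). Cluster 16, led by Sostdc1 and with Fos, Socs3 and Hspa1a among its leading genes, had 110 and 192 CPM of Tpm4 (0.79, 0.44 to 1.16), against 11.5% lower and 13% higher of all genes. Cnn3 was called higher in 6 of 12 clusters and lower in IFE suprabasal-like cluster 6 (37 and 22 UMIs, -0.57, -1.41 to 0.22), and 3 of the 6 had an interval above 0: cluster 7, IFE suprabasal-like cluster 10 (6 and 21 UMIs) and melanocyte-like cluster 21 (258 and 442 CPM, 0.75, 0.09 to 1.51). The other 3, in clusters 1, 3 and 19, had 18 and 20, 5 and 19, and 13 and 22 UMIs. None of the genes was called in clusters 12, 13, 17 and 20, where 10.1%, 11.5%, 18% and 16% of all genes were lower and 11.3%, 11.9%, 18.4% and 15.8% higher.

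**Figure D4:**
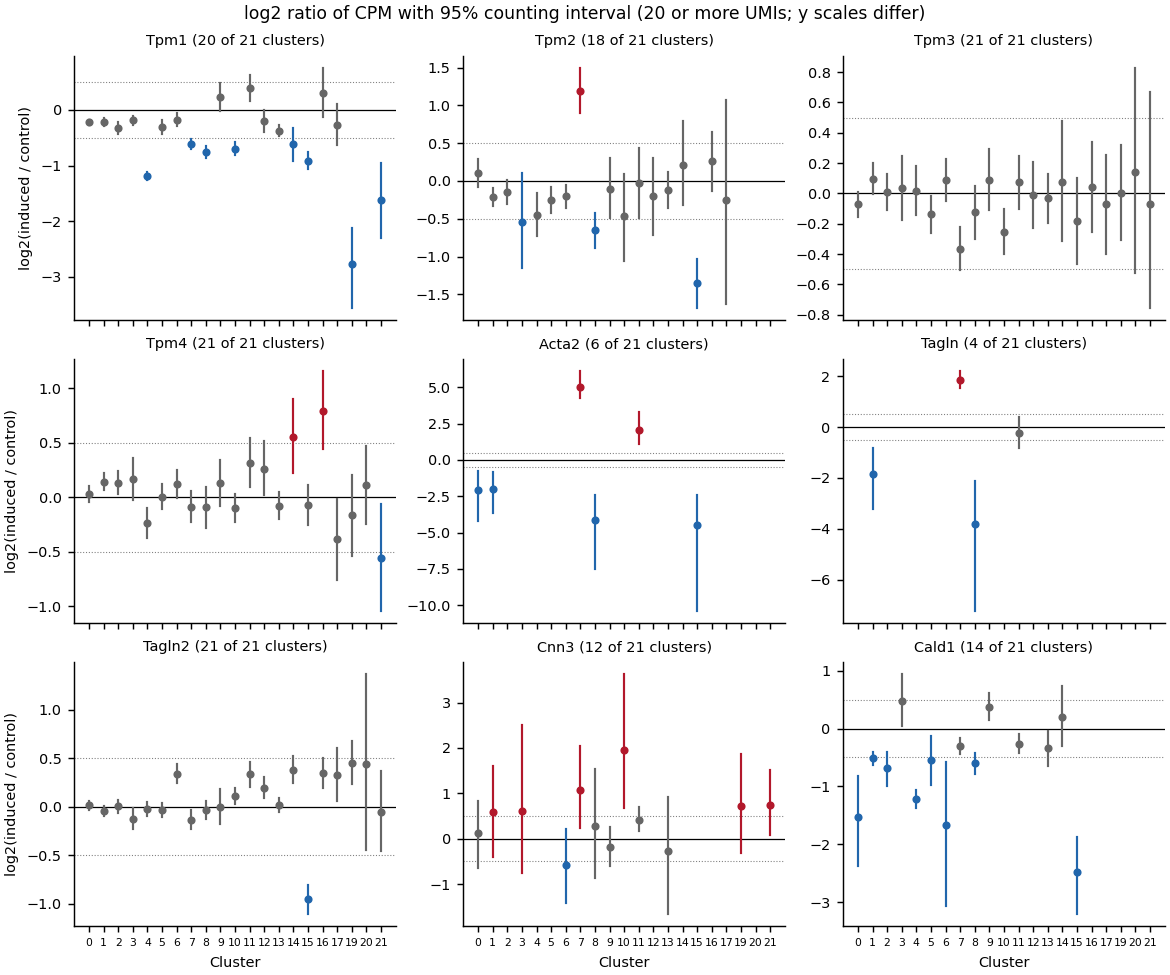
log2 ratio of induced over control CPM (y axis, scales differ between panels) with its 95% counting interval for each of the 9 genes in every cluster (x axis) with at least 20 UMIs. Blue points are at or under -0.5, red points at or over 0.5 and dotted lines mark both folds; Tpm1 and Cald1 have 8 blue points each and Tpm3 none.

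The other genes of the actin filament system were read from a list of 42 by role. That list was chosen with earlier results of these data known, so its counts beside all genes are descriptions. In cluster 4, 33 had enough UMIs, of which 12 were lower and 1 was higher, against 10.3% lower and 13.5% higher of all genes, with a median log2 ratio of -0.46 against 0.03 for all genes. The LIM and stress fibre proteins held most of them, with 7 of 9 lower: Vcl, the focal adhesion protein vinculin, went from 145 to 74.4 CPM (-0.96), Csrp1, a LIM protein of actin bundles, from 623 to 328 CPM (-0.93), and Pdlim7 from 65.9 to 36.1 CPM (-0.86). Of the other calponins, Cnn1 (42 and 10 UMIs, -1.75) and Cnn2 (66.9 to 27.6 CPM, -1.27) were both lower. Srf, the transcription factor that drives many actin genes, went from 119 to 55.7 CPM (-1.09), the cross-linker Flna from 141 to 88.9 CPM (-0.66) and the cytoplasmic actin Actg1 from 15070 to 9289 CPM (-0.70). Of 11 myosin II genes and regulators, none was called. Tmod3, which caps the slow end of tropomyosin-coated filaments, was the gene that was higher, at 68.0 and 100.3 CPM (0.56).

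In cluster 7 the same list split both ways, with 5 of 33 lower, 6 higher and a median of -0.16, counts near the 11.6% lower and 17.9% higher of all genes in this cluster. The lower values were those of the stress fibre proteins Smtn (79.9 to 44.1 CPM, -0.85), Palld (509 to 334 CPM, -0.61) and Vcl (130 to 89.3 CPM, -0.54), the cross-linker Actn4 (376 to 265 CPM, -0.51) and Myh14 (27.5 to 18.9 CPM, -0.54), of which Myh14 had an interval across 0. The largest higher values were those of the contractile genes Mylk (5 and 24 UMIs, 1.94), Cnn1 (19 and 60 UMIs, 1.42) and Myl9 (35 and 109 UMIs, 1.41). The 4 cells with the most Acta2 held 23 of the 24 Mylk UMIs, 53 of the 60 Cnn1 UMIs and 20 of the 109 Myl9 UMIs. Flnc, Lasp1 and Svil were the other 3, at 0.86, 0.77 and 0.51, of which only Svil, named after its values were seen, had an interval above 0.

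**Figure D5:**
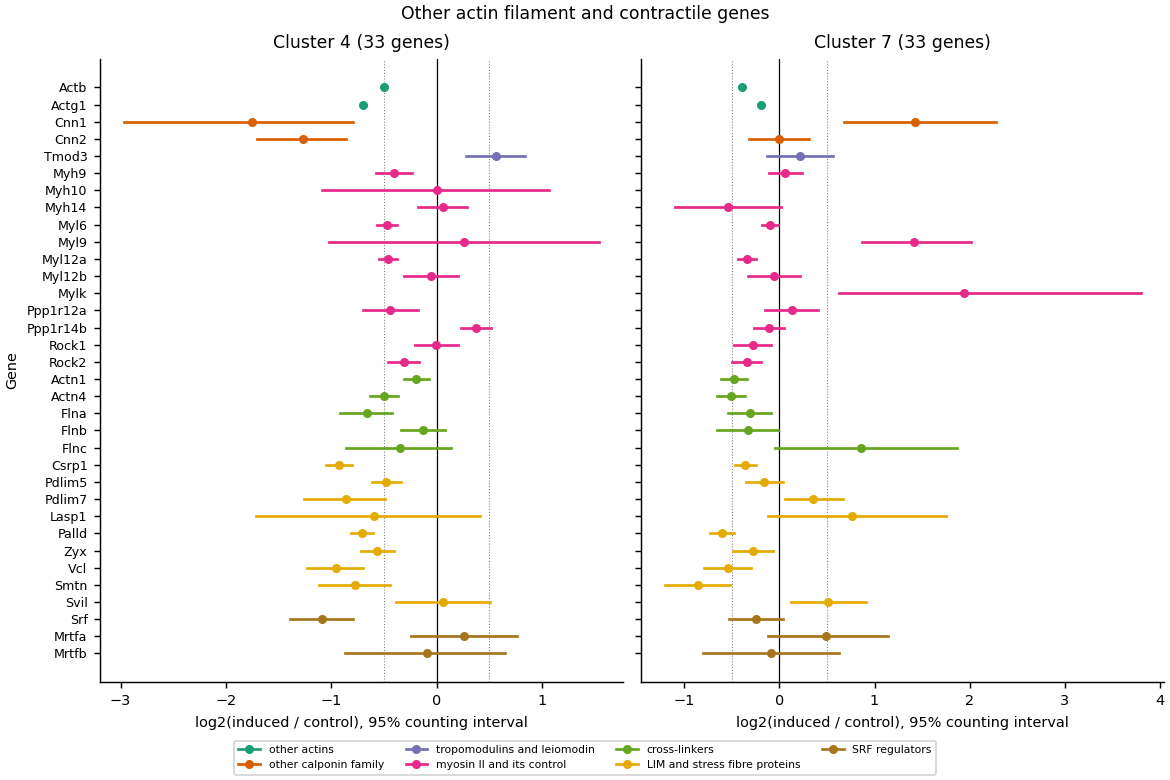
log2 ratio of induced over control CPM (x axis) with its 95% counting interval for the other actin filament and contractile genes (rows, coloured by role) in clusters 4 and 7, whose x ranges differ. In cluster 4, 12 of 33 genes lie at or under -0.5 and 1 at or over 0.5, and in cluster 7, 5 and 6 of 33.

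The genes whose level followed each member most closely were ranked by Pearson's r of log2(CPM + 10) over 42 points, 21 clusters in 2 libraries, among 10793 genes. These points share libraries and differ in depth, so the values are descriptions. Among the genes nearest to Tpm1 were Fosl1 (r = 0.83) and Smap1 (0.82), and Tpm2 was nearest to Dusp8 (0.83), Ier3 (0.83) and Bmp7 (0.80). Acta2 and Tagln had the same 3 neighbours, Col14a1, Atp6v1b1 and Slc43a1, with Col14a1 nearest in both (0.68 and 0.85). Cnn3 followed Gnb4 (0.96), Mef2c (0.94) and Lhfpl2 (0.92), and Cald1 Setbp1 (0.83), Fgfr1 (0.83) and Fbln1 (0.80). Tpm3 was nearest to Ubash3b (0.81), Kdm6b (0.78) and Rap1b (0.76), Tpm4 to Agfg1 (0.84), Eif3a (0.82) and Smarca5 (0.82), and Tagln2 to Kif13a (0.78), Rnd3 (0.77) and Cav2 (0.77). Between members, r was 0.85 for Acta2 and Tagln, 0.52 for Tpm1 and Tagln2, 0.48 for Tpm1 and Cald1 and 0.04 for Tpm1 and Tpm3. At 1 point, cluster 7 of the induced library, Acta2 stood at 165 CPM and Tagln at 146 CPM, and 4 cells held 98.9% of that Acta2. At every other point Acta2 was at 25.6 CPM or less. How far the values of r for Acta2 and Tagln depend on that 1 point was not tested.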

How the data were processed

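Raw UMI counts per gene and cell barcode were deposited by the authors, made with Cell Ranger 3.0.1 (per the file headers) on mm10 (per the submitters' processing notes). Cells were kept at over 200 and under 5000 genes and under 10% mitochondrial UMIs, the limits of the study. Both libraries were integrated in Seurat 5.3.0 (R 4.3.3; 2000 variable genes, 30 dimensions, Louvain resolution 0.8), with 66 list genes withheld from the variable genes. The rule for naming clusters (at least 3 markers raised 2-fold) was set after the clusters were seen. Counts were summed per cluster and library in Python 3.11.15. Intervals are exact Poisson for CPM, conditional binomial for log2 ratios (0.5 UMIs added to each sum) and Clopper-Pearson for shares. None of these covers the spread between mice. UMIs are counted from 3′ ends, and levels were compared within a gene. Scrublet (scanpy 1.11.5) called 4 control and 5 induced doublets, too few to have worked, so doublets were kept, and the 143 and 124 highest-scoring cells were left out as an alternative. The ratio was tested on simulated Poisson counts, which hold no spread between cells or mice, so that test concerns counting error only. Named were all 9 members and, of the actin list, up to 3 genes per role past the fold in clusters 4 or 7. Members and lists were chosen with earlier results of these data known. The 3′ UTR search used NCBIM37 transcripts, another build than mm10, with no coordinates converted. One of the genes nearest to Tpm1 is not reported here.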

Additional observations from a re-analysis of the deposited data

Results flagged for a closer look

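In all, 4 genes had log2 ratios of opposite direction in different clusters, each past the fold with an interval on its own side of 0. Tpm2 stood at 1.19 in cluster 7 and -1.35 in sebaceous gland-like cluster 15, Tpm4 at 0.79 in cluster 16 and -0.56 in melanocyte-like cluster 21, Acta2 at 5.06 in cluster 7 and -4.48 in cluster 15, and Tagln at 1.86 in cluster 7 and -3.81 in HF-SC-like cluster 8. With 1 library per condition these differences were not tested. In cluster 7, 4 cells held 439 of the 444 induced Acta2 UMIs. In cluster 15 a single cell held 19 of the 24 control Acta2 UMIs. Under 5% mitochondrial UMIs, the log2 ratio of Acta2 in cluster 7 was -2.88, from under 20 UMIs, and that of Tpm2 in cluster 15 was 1.29. Without the cells of 10 or more Acta2 UMIs, Tagln in cluster 8 was 0.31, from under 20 UMIs. Cnn3 was also higher in the barcodes removed for 10% or more mitochondrial UMIs (41 UMIs in 570 control and 75 UMIs in 587 induced barcodes, 12.1 and 30.8 CPM, log2 ratio 1.34).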

How the results depend on the processing

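No paired analysis was possible because each condition has 1 library, and for the same reason no replicate could be left out. Over 9 alternatives the log2 ratio of Tpm1 in cluster 4 lay between -1.33 and -1.13, that of Cald1 in cluster 4 between -1.50 and -1.21 and that of Tpm1 in cluster 7 between -0.74 and -0.56. Requiring under 5% mitochondrial UMIs kept 2046 of 3936 control cells and 1846 of 3628 induced cells. It gave opposite signs for Cnn3 in clusters 1 (-0.97), 3 (-3.44) and 7 (-0.37) and Acta2 in clusters 7 (-2.88) and 11 (-0.068). The same held for Tpm2 (1.29) and Cald1 (0.35) in cluster 15. In cluster 7 it left out the 4 cells with 439 of the 444 induced Acta2 UMIs, so the Acta2 value there came from under 20 UMIs. Cnn3 in cluster 3 had only 5 and 19 UMIs before that limit. Leaving out cells of 10 or more Acta2 UMIs, chosen after seeing the data, gave opposite signs for Acta2 in clusters 7 (-1.25) and 8 (0.31) and Tagln in cluster 8 (0.31), each from under 20 UMIs. In cluster 7, the members counted as lower went to 2 and those counted as higher to 1 under 5% mitochondrial UMIs, and the higher ones to 2 without the Acta2-rich cells. In cluster 4, 2 members were higher when 1 UMI sufficed. Of the actin list, the count higher in cluster 4 was 0 at Louvain resolution 0.4 or with list genes kept as variable genes and 2 when 1 UMI sufficed. In cluster 7, the count lower was 2 without mitochondrial and ribosomal totals, and the count higher was 1 under 5% mitochondrial UMIs and 2 with mean CPM over cells or at least 100 UMIs. The cause of these shifts was not tested. Tpm2 in cluster 7 was 0.23 with mean CPM over cells and 0.32 under 5% mitochondrial UMIs. At Louvain resolution 0.4, clusters 1, 2, 6, 14 and 16 had no counterpart and gave no value.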
